A study of Mus musculus with 31 samples.

Results

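The integrated stress response genes examined here were 10 of the 20436 gene symbols counted in mouse cortex, chosen as members of the ATF4 pathway: Atf4, Atf5, Ddit3, Ddit4, Trib3, Asns, Chac1, Sesn2, Ppp1r15a and Ppp1r15b. Cortex was taken between postnatal days 29 and 34 from 4 genotypes: wild type (WT), Fmr1-deficient (FXS), Rps6kb1-deficient (S6K1) and deficient in Fmr1 and Rps6kb1 together (DKO). Fmr1 encodes FMRP, an RNA-binding protein that binds many neuronal mRNAs, and Rps6kb1 encodes S6K1, a kinase that acts below mTORC1 and phosphorylates ribosomal protein S6. The kind of allele, the strain and the sex of the mice were not given in the sources used here. Polyadenylated mRNA was sequenced in 16 libraries, 4 of each genotype, and ribosome footprints, the mRNA fragments that ribosomes shield from nuclease, in 15 libraries (WT 4, FXS 5, S6K1 3, DKO 3). Nothing in the labels says that replicates were separate animals, so p-values measure the spread between these libraries, which may in part be technical.

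The integrated stress response starts with kinases that phosphorylate the initiation factor eIF2, which lowers initiation on most mRNAs. A few mRNAs with upstream open reading frames, short reading frames ahead of the main one, behave in the opposite way: ribosomes translate their main frame poorly at rest and better when eIF2 is phosphorylated. The best known is Atf4, whose product is a transcription factor that switches on genes for amino acid supply, redox balance and, under lasting stress, cell death, while the products of Ppp1r15a and Ppp1r15b guide a phosphatase to eIF2 and so end the response.

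Library totals ran from 12.1 to 17.3 M counts for mRNA and from 16.6 to 34.9 M for footprints (M, the unit of CPM). Levels are given on the counts-per-million scale (CPM) with TMM factors, and translational efficiency (TE) is the log2 ratio of footprint CPM to mRNA CPM, in which the length of the coding sequence cancels. Footprints of the targeted genes followed the labels. Fmr1 was at 7.03 to 8.68 CPM in FXS and 8.03 to 12.8 in DKO against 105 to 138 in WT. Rps6kb1 was at 7.62 to 12.8 CPM in S6K1 and 11.3 to 12 in DKO against 26.1 to 31.7 in WT. In mRNA Fmr1 was at 13 to 22.1 CPM in FXS and 10.6 to 21.6 in DKO against 55.6 to 77.6 in WT. Rps6kb1 mRNA overlapped WT, at 28.2 to 43.7 CPM in S6K1 and 28.5 to 39.6 in DKO against 39.5 to 55.5. The mRNA batches, numbered 5 to 8 in the labels, each held every genotype with 1 library. Footprint batches were unequal: batch 1 held only a DKO and an S6K1 library, batch 2 lacked DKO and batch 4 lacked S6K1. Batch was a term in every test. Of the 10 genes, 9 passed the filter on low counts for mRNA (all but Trib3) and 8 for footprints and TE (all but Trib3 and Atf5).

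In WT cortex the genes of the pathway lay on both sides of the range of TE. Over the 13654 genes that passed both filters the median TE in WT was -0.35, with 1% of genes below -3.76 and 5% above 1.39. Atf4, Ddit3 and Ppp1r15a lay in the lowest 1%, as did Atf5 when placed on the same scale. Ddit4, Asns, Sesn2 and Chac1, which act further down the pathway, lay above the median with percentiles from 86.2 to 91.6.

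Ppp1r15a, which encodes GADD34, the stress-induced eIF2 phosphatase subunit, had a TE of -5.57 ± 0.203 (SE, n = 4 libraries of each kind), which did not differ beyond the errors from the -5.31 ± 0.324 of Atf5. Its 4 WT mRNA libraries held 51.4, 56.4, 47.2 and 61.6 CPM and its 4 WT footprint libraries 1.36, 1.36, 1.06 and 0.782 CPM. Only 21 of the 13654 genes had a lower TE. mRNA CPM was thus 47.6 times footprint CPM. Ppp1r15a (chr7:45522917-45526268, GRCm38) overlaps Tulp2 in the RefSeq annotation, and since the strand setting of the counting is not stated, reads of the pair may be mixed.

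Atf4 (chr15:80255184-80257545), the transcription factor at the centre of the pathway, had a TE of -4.65 ± 0.254 (SE, n = 4 and 4), at percentile 0.374. Its mRNA was abundant and even, at 351, 355, 336 and 356 CPM in the WT libraries, while its footprints were at 13.8, 9.03, 21.3 and 13.8 CPM. Every WT mRNA library was thus above every WT footprint library by more than 10-fold on this scale. Summed over WT libraries the ratio of footprints to mRNA was 0.0434, with an exact 95% interval of 0.0411 to 0.0457 that covers counting error only.

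Ddit3 (chr10:127290793-127296291) encodes CHOP, the transcription factor tied to cell death after lasting stress. Its TE was -4.33 ± 0.318 (SE, n = 4 and 4), from mRNA at 46.9, 38.7, 37.6 and 39.1 CPM and footprints at 3.18, 1.13, 2.29 and 1.91 CPM, or 212 footprint counts in the 4 libraries. The footprint libraries spread nearly 3-fold while the mRNA libraries did not. Ddit3 overlaps Mbd6 and Mars1, so its reads may also be mixed with theirs. Atf5 (chr7:44812256-44816658), a transcription factor related to ATF4 whose main frame is likewise held back by upstream frames, had 43 footprint counts against 813 mRNA counts in WT. Its ratio of summed counts was 0.0276 with an interval of 0.0198 to 0.0375, and its reads may be mixed with those of Nup62 and Il4i1b, which it overlaps.

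Ppp1r15b (chr1:133131166-133139800) encodes CReP, the eIF2 phosphatase subunit that is present without stress and whose mRNA also has upstream frames. Its TE was -1.08 ± 0.121 (SE, n = 4 and 4), at percentile 27.5, so it lay in the main body of genes. The paralogs with the same role in the pathway therefore differed by over 4 log2 units, -5.57 against -1.08, many times their errors.

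Of the ATF4 targets, 4 lay on the other side of the median. Asns (chr6:7675165-7693209), asparagine synthetase, had 152, 189, 187 and 169 CPM of mRNA and 340, 352, 389 and 379 CPM of footprints in WT, a TE of 1.07 ± 0.0862. Ddit4 (chr10:59949675-59951770), which encodes REDD1, an inhibitor of mTORC1, had a TE of 1.11 ± 0.182. Sesn2 (chr4:132492804-132510456), which encodes a leucine-sensing inhibitor of mTORC1, had a TE of 1.03 ± 0.118, and Chac1 (chr2:119351242-119354326), an enzyme that breaks down glutathione, 0.80 ± 0.162. These 4 values lay within 0.4 log2 units of each other, and neighbours in their order differed by less than the larger of their SEs, except that Chac1 was below Sesn2 by more than either SE.

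Trib3 (chr2:152337425-152344060), a pseudokinase that dampens ATF4 activity and AKT signalling, was hardly detected. WT libraries held 12 mRNA counts and 19 footprint counts in all, and the ratio of 0.826 had an exact interval of 0.381 to 1.87. Over all genotypes it had 64 mRNA counts and 49 footprint counts, no library exceeded 8, and 2 mRNA libraries and 1 footprint library had none. No difference between genotypes in Trib3 was detectable at this depth.

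The promoters were searched for the composite site that ATF4 binds with a C/EBP partner, to show which targets carry its letters. The motif TGATGNAA, on either strand, lay within the RefSeq windows (GRCm38.p6) from 250 bases before to 50 after the gene start in 3 of the 9 genes that had a window, against 3.97% of all 32851 windows. The windows below run 5′ to 3′ on the strand of the gene, with the motif in capitals. They lie at chr2:119351038-119351067 for Chac1 (plus strand), chr6:7693214-7693243 for Asns (minus strand) and chr2:152344028-152344057 for Trib3 (minus strand).
Chac1: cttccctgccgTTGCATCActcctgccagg
Asns: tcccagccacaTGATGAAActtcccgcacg
Trib3: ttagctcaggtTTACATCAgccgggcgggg
The Chac1 and Asns motifs lie before the gene start and the Trib3 motif just after it. Asns holds the motif as written, and Chac1 and Trib3 hold its reverse complement. The 3 genes with these letters ran from the hardly detected Trib3 to Asns, at a median of 168 CPM of mRNA over all libraries. A second motif, CCACG, part of the endoplasmic reticulum stress element, was also searched on both strands. It lay in 7 of the 9 genes, against 32.8% of all windows. The 9 genes had 10 windows, since Atf5 had 2, so these counts of genes and shares of windows are not quite alike.

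**Figure D1:**
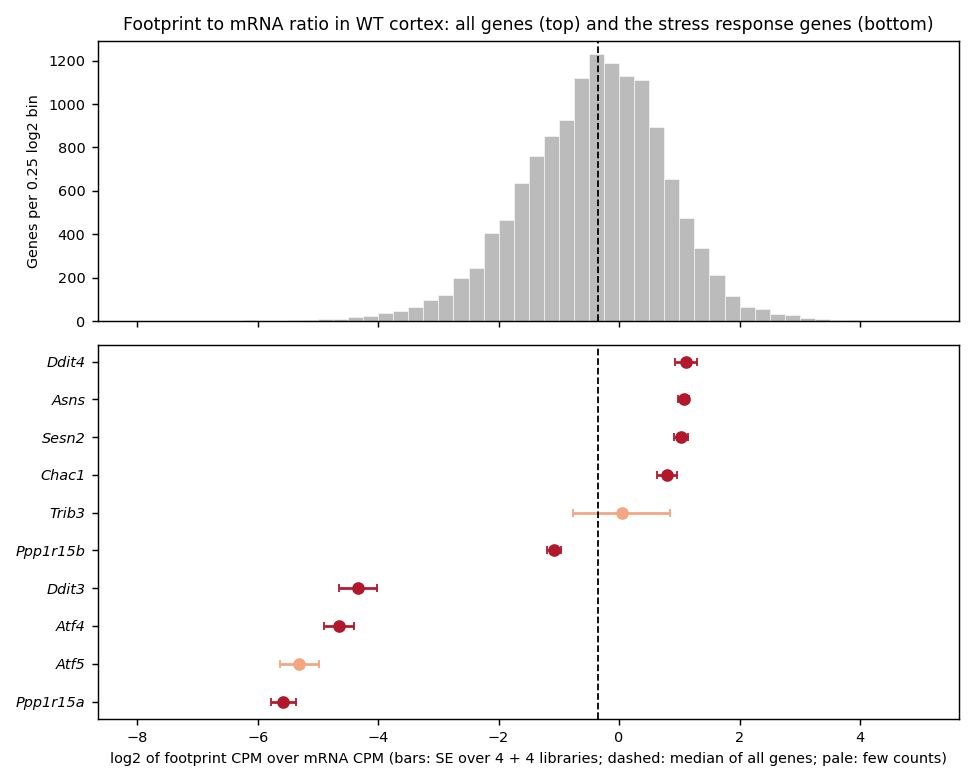
The top panel counts genes by TE in WT (x axis, log2 of footprint CPM over mRNA CPM; y axis, genes per bin), and the bottom panel gives each stress response gene on the same x axis with its SE over 4 mRNA and 4 footprint libraries. Ppp1r15a, Atf5, Atf4 and Ddit3 sit between -5.57 and -4.33, Ppp1r15b at -1.08, and Chac1, Sesn2, Asns and Ddit4 between 0.80 and 1.11, right of the dashed median of -0.35.

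Other mRNAs listed for upstream frames spanned most of the range. Whether each of them has such a frame was not checked here. Among these 10 genes, all tested, the median TE in WT was -0.84. It was lowest, at -3.36, for Slc35a4, whose upstream frame is itself translated. Oaz1 followed at -2.57 and Ifrd1, a transcriptional coregulator, at -2.33. The highest was 1.31 for Cebpb, a transcription factor. The amino acid synthesis genes under ATF4 had a median of 0.06 over 11 genes, the aminoacyl-tRNA synthetases 0.41 over 13, and the eIF2 kinases and eIF2 regulators -0.21 over 20.

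Genes of some other cell types and regions also had a low footprint to mRNA ratio. The 4 blood genes detected had a median TE of -6.19, the 6 endothelial markers -3.70 and the 6 microglial markers -1.88. The 5 striatal genes had a median of -1.11. They ran from -4.98 for Drd2, a receptor of striatal neurons, to -0.19 for Ppp1r1b. Other lists lay nearer the median of all genes, with -0.82 for 6 astrocyte markers, -0.59 for 3 choroid plexus genes and 0.02 for 8 oligodendrocyte markers. The 8 neuronal markers had a median of 0.80. The number of cells of a type and the RNA per cell enter footprints and mRNA alike only where both come from the same tissue. The sources used here do not say whether footprints and mRNA came from the same mice. In this bulk tissue, cell content of the samples and translation per cell therefore cannot be told apart in these ratios. Whether the cell types that hold Atf4, Ddit3, Atf5 or Ppp1r15a mRNA bear on their low ratio was not tested.

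Apart from Trib3, with few counts, genes above or below the median of all genes in WT stayed so in the other genotypes. The order within each side changed in part. Atf5, with few footprint counts, was the lowest member in each mutant, at -6.70 in FXS, -6.20 in S6K1 and -6.52 in DKO. Trib3 was at -1.13, -1.60 and -0.94 in that order. Atf4 had a TE of -4.67 ± 0.0934 in FXS, -4.61 ± 0.255 in S6K1 and -5.02 ± 0.248 in DKO (SE, n = 4 mRNA and 5, 3 and 3 footprint libraries). Ppp1r15a was at -5.27, -5.66 and -5.96 and Ddit3 at -4.11, -3.96 and -4.12 in the same order. All 3 stayed in the lowest 1% of genes in each genotype. Asns lay between 1.02 and 1.28. Chac1 had values of 0.38 ± 0.164 in FXS, 0.29 ± 0.267 in S6K1 and 0.02 ± 0.235 in DKO, below its WT value of 0.80. Ddit4 was at 1.07 ± 0.216 in FXS, 0.39 ± 0.204 in S6K1 and 0.36 ± 0.451 in DKO. Sesn2 was at 0.79 ± 0.100 in FXS, 0.54 ± 0.131 in S6K1 and 0.42 ± 0.262 in DKO. These values take no account of batch, which the tests below do.

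**Figure D2:**
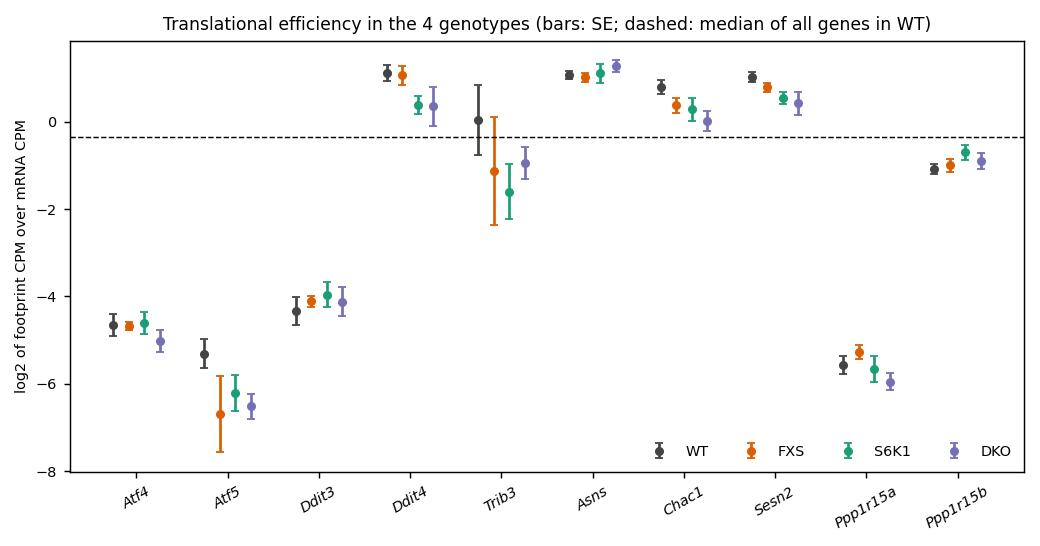
Each point is the TE of a stress response gene in a genotype (y axis, log2 of footprint CPM over mRNA CPM), with its SE as a bar, and the dashed line is the WT median of all genes. Atf4, Atf5, Ddit3 and Ppp1r15a lie below -3.9 in all 4 genotypes, and the bars of Trib3, which has few counts, reach an SE of 1.24 in FXS.

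Over all libraries, the coefficient of variation of the 8 genes tested for TE ran from 8.74% to 14.1% for mRNA. For footprints it ran from 15.1% to 31.9%. These values leave differences of batch and genotype in. With batch in the model, footprints did not have the larger error for every gene. The SE of the Sesn2 log2 fold change in DKO against WT was 0.141 for mRNA and 0.123 for footprints.

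The question put to the mutants was whether loss of Fmr1, of S6K1 or of both changed the pathway, and whether loss of S6K1 altered the effect of losing Fmr1. None of the genes tested passed an adjusted p of 0.05 in any of the 18 comparisons, which were 6 contrasts in each of mRNA, footprints and TE (edgeR quasi-likelihood test, Benjamini-Hochberg over all genes tested). The comparisons with WT share the WT libraries, so their values are set side by side and not counted as separate evidence.

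For mRNA, 0 of 9 genes passed in FXS against WT, where 0.155% of all 14215 genes did, 0 of 9 in S6K1 against WT (0.0211% of all genes) and 0 of 9 in DKO against WT (5.23% of all genes). DKO against FXS and DKO against S6K1 also gave 0 of 9, with 0.0281% and 0.387% of all genes called, and so did the interaction, the effect of losing Fmr1 in mice without S6K1 minus its effect in mice with S6K1, with 0% of all genes called. Against background rates this low, 0 of 9 says little about these genes in particular. The median log2 fold change over the 9 genes was -0.02 in FXS, -0.05 in S6K1 and -0.02 in DKO, against medians within 0.01 of 0 over all genes.

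Atf4 mRNA in FXS was at 344, 305, 280 and 304 CPM, against 351, 355, 336 and 356 in WT. The groups overlapped only through 1 FXS library, and the log2 fold change was -0.19 ± 0.0783 (SE, 95% interval -0.35 to -0.02, adjusted p = 0.328). Within batches 5 to 8 the FXS library was below the WT library by 0.03, 0.22, 0.26 and 0.23 log2 units, so the sign was shared by 4 of 4 batches. In S6K1 Atf4 mRNA ran from 260 to 402 CPM, on both sides of WT, and in DKO from 290 to 347, with fold changes of -0.11 ± 0.0784 and -0.12 ± 0.0783. In order of mean mRNA level the genotypes stood at 349 CPM in WT, 327 in S6K1, 323 in DKO and 308 in FXS, and the ranges of neighbours overlapped.

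Ddit3 mRNA was at 38.0, 36.5, 30.2 and 34.8 CPM in FXS and 37.8, 37.2, 33.5 and 33.5 in DKO, against 46.9, 38.7, 37.6 and 39.1 in WT. Both mutants overlapped WT, in whose group 1 library stood well above the rest. The log2 fold change was -0.22 ± 0.0880 in FXS (adjusted p = 0.300) and -0.19 ± 0.0880 in DKO (adjusted p = 0.199), and both were lower than WT in 4 of 4 batches. In S6K1 it was -0.05 ± 0.0879. An unadjusted p under 0.05 was found for 2 of 9 genes (Atf4 and Ddit3) in FXS, as for 12.7% of all genes, and for 1 of 9 (Ddit3) in DKO, as for 22.3% of all genes.

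Chac1 mRNA was the sole member whose groups did not overlap in DKO, at 7.11, 8.15, 7.16 and 6.33 CPM against 5.68, 6.23, 5.41 and 6.31 in WT, where 6.15% of all genes did not overlap. Its lowest DKO library and highest WT library were nearly equal, and the fold change was 0.28 ± 0.156 (adjusted p = 0.306). The other genes had intervals that held 0 in all 3 mutants. Asns, the best measured, had 95% intervals of -0.16 to 0.09 in FXS, -0.07 to 0.18 in S6K1 and -0.20 to 0.06 in DKO, which leaves out a change of more than about 0.2 log2 units in any mutant by this fit.

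**Figure D3:**
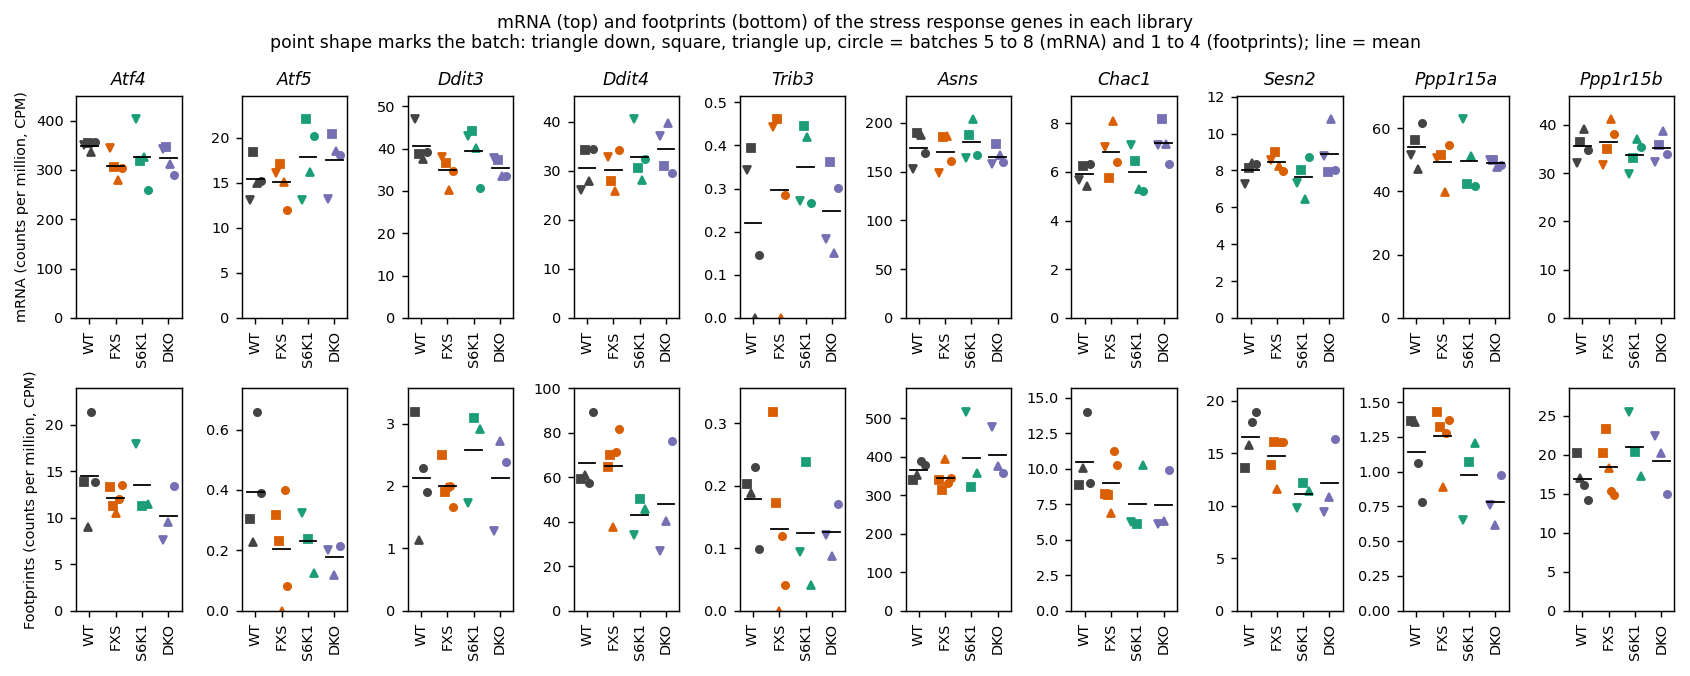
Each point is a library (y axis, CPM from 0, with a scale for each gene; x axis, genotype), with mRNA in the top row and footprints in the bottom row, batch given by the point's shape and group means by lines. Mean Atf4 mRNA is 349 CPM in WT and 308 in FXS with overlapping ranges, and the footprint groups spread more widely than the mRNA groups for most genes.

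For footprints, 0 of 8 genes passed in FXS, S6K1 or DKO against WT, where 0.165%, 0.00717% and 0.366% of all 13953 genes were called. DKO against FXS (0.0143% of all genes), DKO against S6K1 (0.00717%) and the interaction (0%) gave 0 of 8 too. The median log2 fold change over the 8 genes was -0.08 in FXS, -0.09 in S6K1 and -0.26 in DKO, against -0.00, -0.02 and -0.01 over all genes. In DKO 6 of the 8 genes had a negative fold change, none of them called, while 48% of all genes had a positive one.

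Atf4 footprints were at 13.3, 11.2, 10.5, 12 and 13.6 CPM in FXS, 17.9, 11.3 and 11.5 in S6K1 and 7.57, 9.53 and 13.4 in DKO, against 13.8, 9.03, 21.3 and 13.8 in WT. All groups overlapped, and the WT library at 21.3 CPM was the highest of the 15. The log2 fold changes from WT were -0.21 ± 0.184 in FXS, 0.10 ± 0.241 in S6K1 and -0.43 ± 0.225 in DKO (adjusted p = 0.733, 0.949 and 0.339). DKO against S6K1 gave -0.53 ± 0.235 (adjusted p = 0.566), a contrast in which batch 1 held the highest S6K1 library and the lowest DKO library. Mean footprints ordered the genotypes as for mRNA at the top, 14.5 CPM in WT and 13.6 in S6K1, then 12.1 in FXS and 10.2 in DKO, with each neighbouring pair overlapping.

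Sesn2 footprints were at 9.80, 12.2 and 11.4 CPM in S6K1, all below the WT libraries at 13.5, 15.8, 18 and 18.9. The DKO libraries, at 9.37, 10.8 and 16.4 CPM, overlapped WT. The log2 fold change with batch in the model was -0.30 ± 0.130 in S6K1 (adjusted p = 0.535) and -0.29 ± 0.123 in DKO (adjusted p = 0.257). Both had an unadjusted p under 0.05, as had 8.74% of all genes in S6K1 and 17.1% in DKO.

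Ddit4 footprints showed the same separation of S6K1 from WT, at 33.9, 50.1 and 45.6 CPM against 59.2, 60.9, 57.3 and 89.4. Among all genes, 9.91% did not overlap between these groups. With batch in the model the log2 fold change was -0.16 ± 0.202 in S6K1 (adjusted p = 0.888). Within batch 2 the S6K1 library had 50.1 CPM and the WT library 59.2, and within batch 3 they had 45.6 and 60.9. DKO libraries held 26.9, 40.5 and 76.4 CPM, a spread wider than any difference between group means.

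Chac1 footprints were at 6.12, 6.34 and 9.91 CPM in DKO and 6.27, 6.07 and 10.3 in S6K1, against 8.84, 10.1, 14 and 8.99 in WT. In each mutant 2 libraries lay below WT and the third inside its range, with fold changes of -0.39 ± 0.192 in DKO (adjusted p = 0.316) and -0.18 ± 0.199 in S6K1. Atf5 was too low for the test. Its DKO libraries had 5, 4 and 5 footprint counts, or 0.200, 0.117 and 0.213 CPM, against 6, 6, 23 and 8 counts, or 0.303, 0.226, 0.658 and 0.391 CPM, in WT. These groups did not overlap, as was so for 16.3% of all genes tested in that pair of groups, and the closest values were 0.213 and 0.226 CPM.

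The eIF2 phosphatase subunits, which act at the other end of the pathway, were not called in either measure. Ppp1r15a footprints were at 1.43, 1.32, 0.891, 1.28 and 1.38 CPM in FXS, 0.650, 1.07 and 1.2 in S6K1 and 0.761, 0.614 and 0.978 in DKO, against 1.36, 1.36, 1.06 and 0.782 in WT, from 14 to 37 counts a library. Every group overlapped WT, and the DKO fold change of -0.38 ± 0.306 (adjusted p = 0.527) had an interval of -1.03 to 0.27. Ppp1r15b footprints, better covered with 291 to 694 counts a library, had fold changes of 0.06 ± 0.0884 in FXS, 0.03 ± 0.112 in S6K1 and 0.05 ± 0.108 in DKO, all smaller than their SEs. Ppp1r15a mRNA had fold changes of -0.14 ± 0.112 (FXS), -0.13 ± 0.112 (S6K1) and -0.14 ± 0.112 (DKO), and its 95% interval held 0 in each. Atf5 mRNA was at 13.1 to 22 CPM in S6K1 and 13.2 to 20.4 in DKO against 13.1 to 18.4 in WT, with fold changes of 0.21 ± 0.125 and 0.18 ± 0.125 that were not called.

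For TE, 0 of 8 genes passed when FXS (0.0952% of all 13654 genes called), S6K1 (0.0293%) or DKO (4.85%) was set against WT. The contrasts of DKO with FXS (0.0146%) and with S6K1 (0.00732%) and the interaction (0%) gave 0 of 8 as well. The contrast of DKO with WT had the most genes called of the 6, and there 3 of the 8 genes had an unadjusted p under 0.05, as had 24.9% of all genes. The median over the 8 genes was -0.29 in DKO, against -0.02 over all genes.

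Chac1 had a TE log2 fold change of -0.67 ± 0.244 (95% interval -1.17 to -0.17, adjusted p = 0.0965) and Sesn2 -0.44 ± 0.178 (adjusted p = 0.129). Ddit4 was at -0.40 ± 0.244 and Asns at 0.00 ± 0.0952. Ddit3 had a positive value of 0.56 ± 0.233 (adjusted p = 0.138), made of a lower mRNA and a higher footprint estimate. That footprint estimate, 0.37 ± 0.262, came with the batch terms and ran from 0.01 to 0.67 over the alternatives. Before them, mean Ddit3 footprints were 2.13 CPM in both groups, at 1.28 to 2.72 in DKO and 1.13 to 3.18 in WT. Atf4 was at -0.32 ± 0.227 (adjusted p = 0.390), Ppp1r15a at -0.26 ± 0.304 and Ppp1r15b at 0.07 ± 0.118. The intervals of Atf4, -0.79 to 0.15, and of Ppp1r15a, -0.88 to 0.37, still allow changes of over 1.5-fold in translation, so their lack of a call does not show that they were equal to WT.

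In S6K1 Ddit3 had a TE log2 fold change of 0.57 ± 0.241 (adjusted p = 0.607), close to its DKO value. In FXS the 8 genes ran from -0.41 for Chac1 to 0.22 for Ppp1r15a, and the smallest adjusted p was 0.424. DKO against S6K1 put Atf4 at -0.53 ± 0.234 (adjusted p = 0.306). The interaction for Atf4 was -0.49 ± 0.312 in TE and 0.18 ± 0.111 in mRNA, and the smallest adjusted p of any gene tested here was 0.9999, 0.9996 and 0.9998 for mRNA, footprints and TE. The effect of losing Fmr1 on these genes was therefore not shown to differ between mice with and without S6K1.

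**Figure D4:**
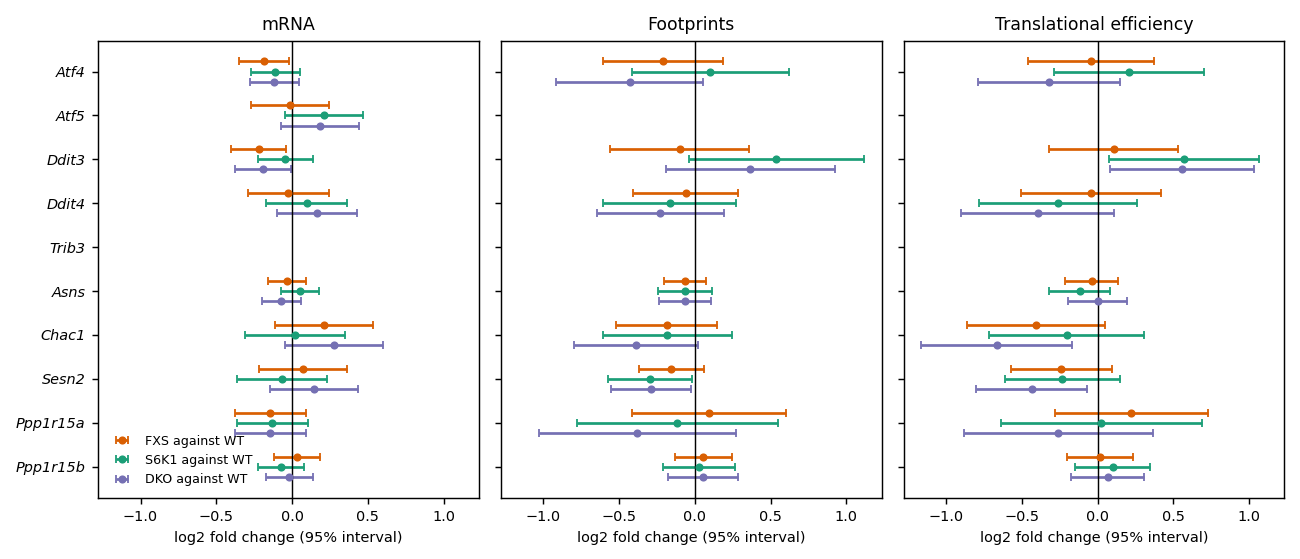
Points are log2 fold changes from WT in FXS, S6K1 and DKO with 95% intervals (x axis) for mRNA, footprints and TE, with a row for each gene tested and none for Trib3. Intervals are narrow for mRNA, such as -0.35 to -0.02 for Atf4 in FXS, and wide for TE, such as -1.17 to -0.17 for Chac1 in DKO, and none of these differences passed the adjusted threshold.

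The authors' deposited tables compare FXS and DKO with WT. In the authors' deposited table of DKO mRNA the smallest adjusted p among the 9 genes listed was 0.178, and in that of DKO TE it was 0.179 among 7 genes. The authors' deposited tables hold 0 of these genes under an adjusted p of 0.05 in all 6 comparisons, and they list Trib3 in none. For footprints and TE they also lack Atf5 and Ppp1r15a. No adjusted p is given there for Atf5, Chac1 and Sesn2 in FXS mRNA or for Ddit3 in FXS footprints.

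From 8 lists of the pathway, 95 genes were tested for mRNA, 96 for footprints and 95 for TE. The lists held eIF2 kinases and regulators, partner transcription factors, amino acid synthesis and transport, tRNA synthetases and further ATF4 targets. They also held the ATF6 and IRE1 arms of the unfolded protein response and other mRNAs listed for upstream frames. In DKO against WT 1 of 95 passed for mRNA, or 1.05% against 5.23% of all genes, and 1 of 95 for TE, against 4.85%. For footprints 1 of 96, or 1.04%, passed in DKO, against 0.366% of all genes, and 1 of 96 in FXS, against 0.165%, and 0 passed in S6K1 in any measure. The list medians in DKO were -0.01 for mRNA, 0.01 for footprints and 0.00 for TE. Eif2ak3, the kinase PERK, had a footprint fold change of -0.29 ± 0.135 in DKO (adjusted p = 0.295), and Hspa5, the chaperone BiP, 0.25 ± 0.125 (adjusted p = 0.323).

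The 3 genes that passed were Nfe2l2, Bace1 and Ndrg1. Nfe2l2 encodes NRF2, the transcription factor of the antioxidant response, and its mRNA fell by 0.37 on the log2 scale in DKO (SE 0.110, adjusted p = 0.0471). Of 8 fits with a library left out, 2 kept that call, and it was lost without any of DKO replicates 1 to 4 or WT replicates 2 and 3. Of 7 other settings 2 kept it, and the values ran from -0.45 to -0.25. Bace1, the protease that makes amyloid peptide and whose mRNA has several upstream frames, fell by 0.59 in TE in DKO (SE 0.148, adjusted p = 0.0289), and 9 of 15 fits with a library left out kept the call. It was lost without footprint libraries WT 2, DKO 2 or DKO 3 or mRNA libraries WT 2, WT 3 or DKO 3, with values from -0.72 to -0.41.

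Ndrg1, a stress and hypoxia gene that is also rich in oligodendrocytes, fell in footprints by 0.42 in FXS (SE 0.0719, adjusted p = 0.0323) and by 0.55 in DKO (SE 0.0897, adjusted p = 0.0204). With a library left out, 2 of 9 fits kept the call in FXS, which was lost without any FXS library or WT replicate 3 or 4. In DKO 2 of 7 kept it, and it was lost without any DKO library or WT replicate 2 or 3. Over all alternatives the value stayed between -0.45 and -0.37 in FXS and between -0.66 and -0.49 in DKO, and 4 of 6 settings other than a left-out library kept each call. Footprints of the 8 oligodendrocyte markers summed to 1752 to 2655 CPM in FXS and 1856 to 2624 in DKO, against 2749 to 3989 in WT. In S6K1 they summed to 2574 to 2795 CPM, which overlapped WT only at its lower end. Among all single genes, 1.74% did not overlap between FXS and WT and 16.3% between DKO and WT. Of the 8 markers, Cnp was called lower in FXS and DKO, and Opalin in DKO. The mRNA sums of the markers overlapped, at 1751 to 2764 CPM in FXS, 1852 to 3160 in S6K1, 1796 to 3265 in DKO and 1878 to 3019 in WT. The part of oligodendrocyte RNA in the Ndrg1 result was not tested.

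More of the genes were called among batches than in any contrast of genotypes, but the tests were unlike. Batches were tested all at once, and genotypes only by separate contrasts. A test of batch in the same fits, added after the data were seen, called 5 of 9 genes for mRNA, where 40.5% of all genes were called, and 6 of 8 for footprints, where 53.9% were, so both shares lie near the background of all genes. For mRNA these were Atf4 (adjusted p = 0.0461), Atf5, Ddit3, Asns (adjusted p = 0.00214) and Ppp1r15b. Leaving out single libraries brought the count down to as few as 2 for mRNA and 3 for footprints, the latter without DKO replicate 3.

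For footprints the largest span was that of Ddit4, whose batch means ran from 30.4 CPM in batch 1 to 75.3 in batch 4, 2.48-fold apart (adjusted p = 0.00475). Sesn2 went from 9.58 CPM in batch 1 to 17.1 in batch 4 (adjusted p = 0.00634) and Chac1 from 6.20 to 10.9 (adjusted p = 0.0352), so these targets were low and high in the same batches. Asns had the opposite pattern in batch 1, with 476 and 515 CPM against 313 to 395 in the other 13 libraries. Ppp1r15b was at 14.2 to 16.1 CPM in the 5 libraries of batch 4 and 17.1 to 25.5 in the others (adjusted p = 0.00128).

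Footprints of the 18 genes of the ATF6 and IRE1 arms summed to 1920 to 2215 CPM in batch 4 and 2817 to 3731 in batches 1 to 3, and 17 of the 18 were called among batches. Those of 11 immediate early genes, of which 3 were called, summed to 837 and 1129 CPM in batch 1, 1036 to 2198 in batches 2 and 3, and 1957 to 4227 in batch 4, with overlap between batches. Since batch 1 held no WT or FXS library, the low Ddit4 and Sesn2 footprints there and the genotype of those libraries cannot be told apart without the model's use of the other batches. The part of either group of genes in the batch differences of the stress response genes was not tested.

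**Figure D5:**
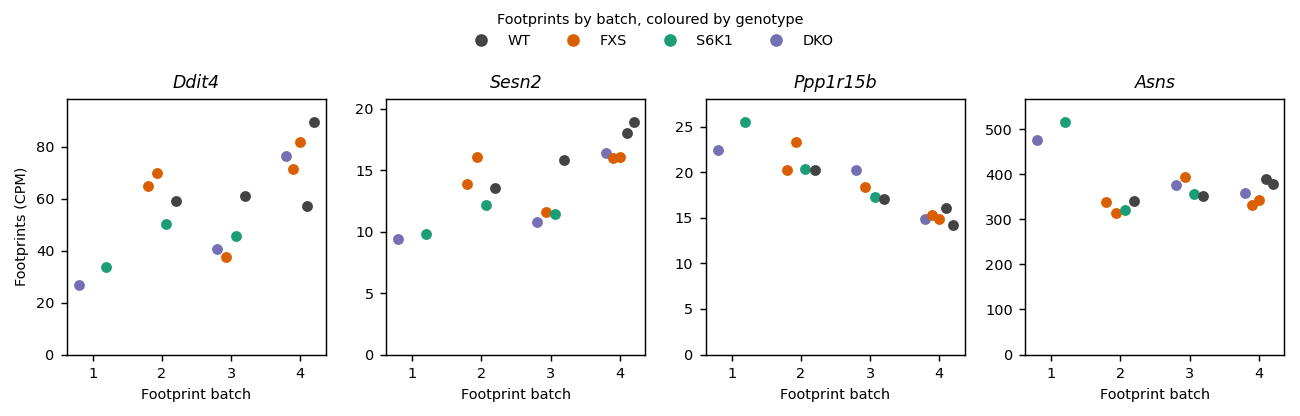
Footprint CPM (y axis, from 0) of Ddit4, Sesn2, Ppp1r15b and Asns is plotted by footprint batch (x axis) with genotype as colour, a point for each library. Ddit4 is at 26.9 and 33.9 CPM in batch 1 and 57.3 to 89.4 in batch 4, while Asns is highest in batch 1 and Ppp1r15b lowest in batch 4.

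After centring on batch, the genes whose mRNA followed Atf4 most closely over the 16 mRNA libraries were Cby1 (Pearson r = 0.908), Stx4a (0.908), Pde6d (0.899), Rom1 (0.893) and Coprs (0.889). These are descriptions among 14214 genes, over libraries that differed in depth and may differ in tissue composition. S6K1 replicates 1 and 4 had the highest and lowest Atf4 mRNA, 402 and 260 CPM, with Ppp1r15a at 62.8 and 41.6 CPM. S6K1 replicate 1 was also the highest of the 16 libraries for 15.8% of all genes. Of the pathway members, Ppp1r15a ranked 11th with r = 0.872 and Ddit3 followed at rank 681 with 0.63. The ATF4 targets Ddit4, Asns, Chac1 and Sesn2 had r of 0.38, 0.24, 0.03 and -0.29, with Ddit4 at rank 2542.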

How the data were processed

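The authors deposited raw counts per gene symbol over coding sequence for 16 mRNA and 15 footprint libraries; per the labels' protocols mRNA libraries used the TruSeq polyA kit. Per the submitters' processing notes, cutadapt 2.0, Bowtie2, TopHat2, RSEM and the build mm10 were used, in roles not given in the sources used here. The authors' comparison tables give log2 fold changes and p-values, per the file headers, with the tool not stated.

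Counts were tested with edgeR 4.0.16 in R 4.3.3 (robust quasi-likelihood F-test, TMM factors of 0.956 to 1.09, filterByExpr by genotype, batch and genotype as terms, all genotypes together). The batch block is the batch of the labels, which every mRNA batch shares across genotypes. TE was the footprint contrast minus the mRNA contrast in 1 model of 31 libraries. Calls needed an adjusted p (Benjamini-Hochberg, across every gene in the test) below 0.05. TE levels were differences of mean log2 CPM (prior count 0.5), with the SE from the spread over libraries. Alternatives were RLE factors, no filter, DESeq2 1.42.0, limma 3.58.1 (voom), no batch term, 2 genotypes alone, no batch 5 and each library left out; for TE levels also a prior count of 2 and the ratio of summed counts. The pipeline was tested on simulated data. Replicates were numbered in accession order.

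The members and gene lists were chosen with earlier results of these data known. All 10 members are named; of the other lists, called genes in FXS and DKO against WT, with 2 pathway genes (Eif2ak3, Hspa5) and the examples of WT TE chosen after their values were seen. For Atf4, the 5 genes most correlated with it are named. Gene positions come from RefSeq (GRCm38). Some marker results are not reported here.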

Additional observations from a re-analysis of the deposited data

Results flagged for a closer look

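Of 60 groups of 4 or more libraries over the 10 genes, 3 held a library set far from the others by Dixon's gap test at the 95% level, which is 5% of the groups and what chance gives, about 1 in 20. Ddit3 mRNA in WT replicate 1 was at 46.9 CPM, above the other 3 WT libraries. Ddit4 footprints in WT replicate 4 were at 89.4 CPM, above the other 3, and the same library had the highest sum of immediate early gene footprints, 4227 CPM. Ppp1r15a footprints in FXS replicate 3 were at 0.891 CPM, below the other 4 FXS libraries.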

How the results depend on the processing

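None of the genes passed the adjusted threshold under any of the 333 alternatives over the 18 comparisons, DESeq2 and limma voom included. The smallest adjusted p was 0.0516, for Chac1 TE in DKO against WT without RPF WT replicate 4, and Ddit3 in the same comparison reached 0.0517 without RPF WT replicate 1. The differences between genotypes with an unadjusted p under 0.05 were followed, with those of Atf4 footprints and TE in DKO against WT, 13 in all. A small p in these same data favours a kept sign, so a kept sign is no support for them. All 13 kept their sign in all 227 of their alternatives. Smaller differences did not: Atf4 footprints in S6K1 against WT changed sign in 3 of 13 alternatives (-0.12 to 0.41), Ddit4 footprints there in 2 of 13 (-0.63 to 0.06), and Asns TE in DKO against WT in 6 of 22 (-0.06 to 0.22). With no replicate block (the batch term left out) the count called stayed at 0 in every comparison, Atf4 mRNA in FXS was at -0.18 (adjusted p = 0.998), Sesn2 footprints in S6K1 moved to -0.57 and Ddit3 TE in DKO to 0.22. TE in WT ran from -4.86 to -4.45 for Atf4 and from 1.01 to 1.11 for Asns over its alternatives. For Trib3, with few counts, it ran from -0.68 to 0.45. All 120 alternatives moved by at most 2 SE. Leaving out 1 of 4 libraries cannot move a mean further than that, so the limit tests little. A count of 0 among so few genes is no measure of steadiness. In TE for DKO against WT the estimates ran from 0.22 to 0.83 for Ddit3 and from -0.48 to -0.05 for Atf4. Calls over all genes there numbered 662, 2 without the batch term, 1171 with DESeq2, and 8 to 1096 with a library left out. For mRNA they numbered 743, 2, 1085 and 71 to 1093, for footprints in DKO 51, 4 to 290 over other settings and 2 to 103 with a library left out, and for FXS mRNA 22, with 446 when WT and FXS were fitted alone; the cause was not tested. The added test among batches called 5 genes for mRNA, 2 to 5 with a library left out, and 6 for footprints, 3 to 7. The low footprint counts of Atf5 and Trib3 limit any statement on them.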
